A study of Rattus norvegicus with 6 samples.

Results

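CHG and CHH methylation was profiled across genes in brain microvascular endothelial cells (BMECs), which line the capillaries of the hippocampus and form the blood–brain barrier. CHG and CHH are the sequence contexts of cytosines that are not followed by a G, where H stands for A, C or T. The profile divided the 2000 bp upstream of genes, the gene body and the 2000 bp downstream into 50 bins each. The CHG and CHH bins were taken by their context label and made up 300 of the 450 bins, with 150 for each context, and the other 150 were CG bins. Of the male Sprague-Dawley rats, which were adult at purchase, those of the CUMS group went through 8 weeks of chronic unpredictable mild stress, with restraint, deprivation of food and water, a tilted cage, wet bedding, a cold swim or continuous light applied in random order. Ctrl rats were left in their home cages without stress. Each group comprised 3 samples of cells sorted as CD45-/CD31+ from dissociated hippocampus. The tables hold no expression values, so the identity of the sorted cells could not be checked against endothelial markers.

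In mammals, most DNA methylation lies at CG sites and is copied to the new strand after replication. Methylation outside CG is added anew by the DNMT3 enzymes, is best known from neurons, oocytes and embryonic stem cells, and is low in most other cells. Promoters of active genes are usually poor in CG methylation, and gene bodies are rich in it. The libraries were made by enzymatic conversion, in which an unmethylated cytosine is deaminated and read as T. A cytosine that escaped deamination is read as methylated, so a level well below 1% can hold both, and these tables do not separate them.

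The contexts can be seen in the last bases before a gene start, which lie in the upstream bin nearest to the gene. The sequences below are the 30 bases before the RefSeq gene start (GRCr8 assembly, minus strand, written 5′ to 3′) of Cldn5, which encodes the tight junction protein claudin-5, and of Cacna1c, a gene of the calcium channel Cav1.2 that the study followed up. Capitals mark the cytosines of the named context on the strand shown.
Cldn5, CHG (chr11:95718599-95718628): ccccaaCcgaccaCtgcaaaaCcgagttgg
Cldn5, CHH (same bases): CCCCaaccgaCCactgCaaaaccgagttgg
Cacna1c, CHG (chr4:154051749-154051778): agCagagaaccaagaaaagaggggtgcttt
Cacna1c, CHH (same bases): agcagagaaCCaagaaaagaggggtgCttt
The Cldn5 stretch held 3 CHG, 7 CHH and 2 CG cytosines on this strand, and the Cacna1c stretch held 1, 3 and 0. These genes only illustrate the contexts, because each level of the profile is an average over genes.

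CHH is the most frequent context near gene starts. Over 33469 RefSeq promoters and both strands, CHH made up 64.9% of cytosines at 250 to 201 bp before the start, 59.4% in the last 50 bp before it and 57.8% in the first 50 bp after it. The CHG share was 22.7%, 23.4% and 25.3% at these places, and the CG share was 12.4%, 17.2% and 16.9%. In number, a promoter held a mean of 6.41 CHG and 16.3 CHH cytosines in the last 50 bp before the start. The adjoining 50 bp farther out held 6.14 CHG and 16.5 CHH cytosines, and the 50 bp beyond those held 6.01 and 16.4. Over these windows the number of CHG cytosines thus did not fall toward the start.

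In each bin the 3 samples of a group had been combined into 1 level by the authors. No level carries a replicate error, its depth is unknown, and no difference between the groups could be tested against the spread between rats. The median step in level from a bin to its neighbour was used as a measure of how smooth each profile was. It is no substitute for replicate error, because neighbouring bins share their genes and samples.

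CHG levels were low and nearly flat across genes. They ranged from 0.305% to 0.346% over the 150 bins in CUMS and from 0.276% to 0.322% in Ctrl. CHH levels were slightly higher, at 0.318% to 0.369% in CUMS and 0.279% to 0.337% in Ctrl. The highest Ctrl bin was 1.16 times the lowest for CHG and 1.20 times for CHH, whereas the factor was 4.03 for CG. In CUMS the factors were 1.13, 1.16 and 3.35.

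CUMS exceeded Ctrl in 150 of 150 CHG bins and in 150 of 150 CHH bins. This was also so for CG, and the share over the 450 bins of the 3 contexts was 100%, so the direction does not set CHG and CHH apart. Averaged over all bins, CHG methylation was 0.328% in CUMS compared with 0.307% in Ctrl, and CHH methylation was 0.346% compared with 0.317%. Whether the share of cytosines that escaped deamination differed between the groups was not tested. In the gene body every CUMS bin lay above the highest Ctrl bin in both contexts, and the same held downstream for CHH. The ranges of the groups overlapped elsewhere. Upstream, 31 of 50 CHG bins and 37 of 50 CHH bins of CUMS exceeded the highest Ctrl bin, and downstream 36 of 50 CHG bins did. For CG the counts were 15 of 50 upstream, 15 of 50 in the gene body and 5 of 50 downstream. Such a count depends on how flat a profile is as well as on the gap between the groups, so it does not compare the contexts.

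**Figure D1:**
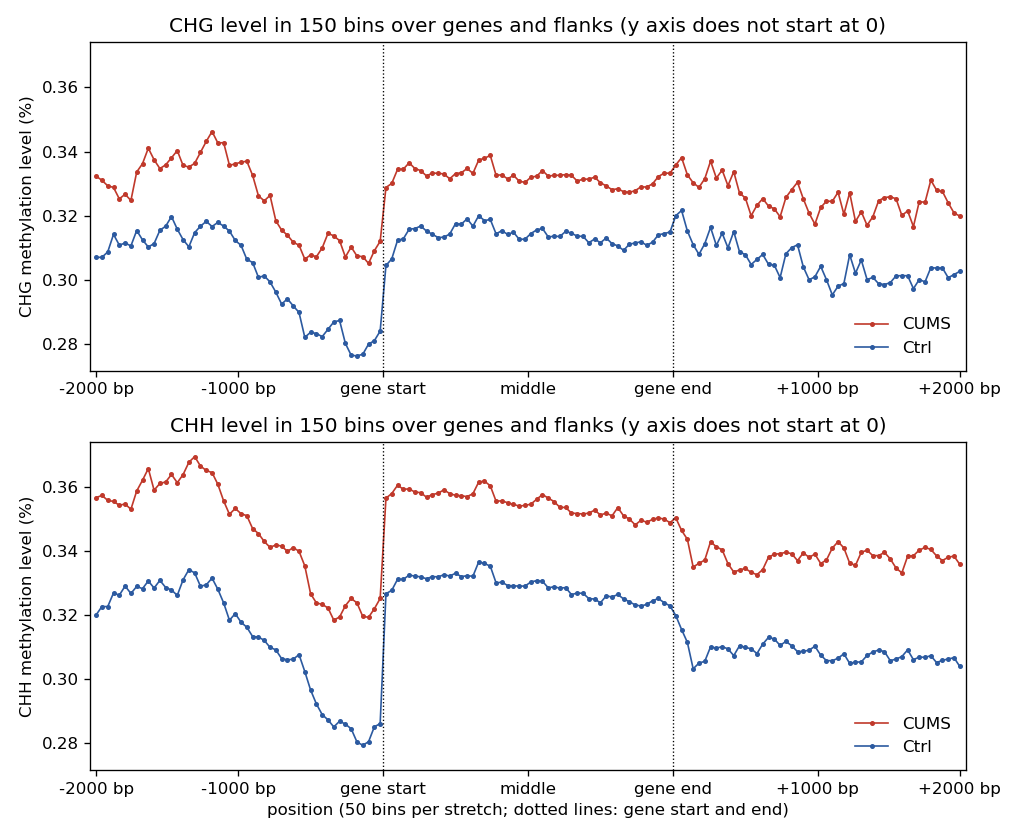
CHG (top) and CHH (bottom) methylation level in percent, in 50 bins each of the 2000 bp upstream, the gene body and the 2000 bp downstream, with 1 point per bin for CUMS (red) and Ctrl (blue). Each point is a group value without replicate error. Both groups dip before the gene start, to a lowest bin of 0.305% (CHG) and 0.318% (CHH) in CUMS and 0.276% and 0.279% in Ctrl.

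Upstream of genes, both contexts first rose slightly and then fell toward the start. The CHG level was highest at 1200 to 1161 bp before the start in CUMS (0.346%) and at 1480 to 1441 bp in Ctrl (0.320%). It was lowest at 120 to 81 bp in CUMS (0.305%) and at 200 to 161 bp in Ctrl (0.276%). From the highest to the lowest bin, the CHG level thus dropped by 11.9% of its value in CUMS and by 13.6% in Ctrl.

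The CHH decline was somewhat deeper. The level was highest at 1320 to 1281 bp in CUMS (0.369%) and at 1360 to 1321 bp in Ctrl (0.334%), and lowest at 360 to 321 bp in CUMS (0.318%) and at 160 to 121 bp in Ctrl (0.279%). The drop came to 13.8% of the highest level in CUMS and 16.4% in Ctrl. It amounted to 0.0510 and 0.0547 percentage points, whereas neighbouring upstream CHH bins differed by a median of 0.00182 points in CUMS and 0.00220 points in Ctrl. In CG the corresponding drop was 60.1% in CUMS and 65.5% in Ctrl, so the dip in CHG and CHH was shallow in comparison.

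The dip was also expressed as the mean of the 5 bins nearest the start, which span 200 bp, over that of the 5 outermost upstream bins. For CHG this relative level was 0.936 in CUMS (0.308% over 0.329%) and 0.903 in Ctrl (0.280% over 0.310%). For CHH it was 0.905 in CUMS (0.322% over 0.356%) and 0.872 in Ctrl (0.282% over 0.324%). The dip was thus deeper in Ctrl in both contexts. The CG values were 0.417 and 0.366, with the same order of the groups.

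Right after the start, the levels of both contexts were back near those of the gene body. From the last upstream bin to the first bin of the gene body, the CHG level changed from 0.312% to 0.329% in CUMS, a gain of 5.38%, and from 0.284% to 0.305% in Ctrl, a gain of 7.2%. The CHH level changed from 0.325% to 0.356% in CUMS, a gain of 9.61%, and from 0.286% to 0.327% in Ctrl, a gain of 14.1%. These steps, of 0.0168 and 0.0205 points for CHG and 0.0313 and 0.0405 points for CHH, exceeded the largest step between neighbouring bins within any stretch of the same context and group. An upstream bin covers 40 bp and a gene body bin covers 2% of the gene, so the step also spans a change of scale.

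Averaged over the first 5 bins of the gene body, CHG in CUMS and CHH in both groups were at the level of the central 30 bins. CHG in Ctrl was slightly below it, and its first bin, at 0.305%, was the lowest of its 50 gene body bins. The CHG mean was 0.333% in these first bins and 0.333% in the centre in CUMS (relative level 1.001), and 0.310% and 0.315% in Ctrl (0.986). The CHH relative level was 1.01 in CUMS and 1.000 in Ctrl. CG differed, since its first 5 bins were at 0.776 of the central level in CUMS and 0.749 in Ctrl.

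**Figure D2:**
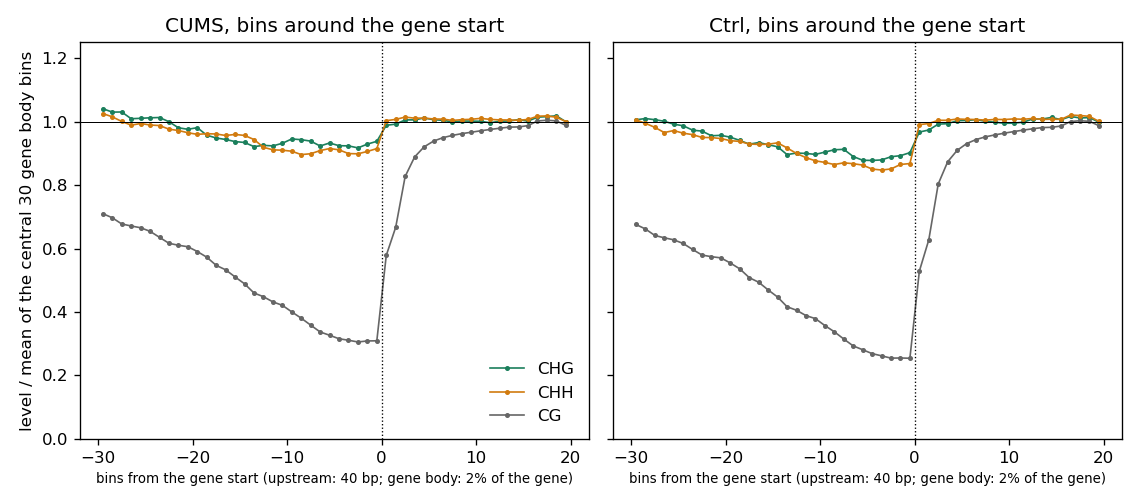
Level divided by the mean of the central 30 gene body bins, for CHG, CHH and CG, in the 30 bins before and the 20 bins after the gene start in CUMS (left) and Ctrl (right). Near the start CG falls to 0.310 of the central level in CUMS and 0.259 in Ctrl (mean of 5 bins), whereas CHG stays at 0.927 and 0.888 and CHH at 0.906 and 0.856.

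Across the gene body, the CHG and CHH profiles were nearly flat. The highest and lowest CHG bins differed by 3.45% of the mean level in CUMS and by 4.94% in Ctrl, and for CHH these ranges were 3.85% and 4.18%. CHH declined slightly along the gene, from 0.359% in the first 5 bins to 0.3495% in the last 5 in CUMS and from 0.330% to 0.324% in Ctrl. CG went the other way, from 59.1% to 77.7% in CUMS and from 56.3% to 76.8% in Ctrl. CHG showed no such slope, with 0.333% and 0.332% in CUMS and 0.310% and 0.313% in Ctrl.

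Across the gene end, the CHG and CHH levels changed little. The CHG level was slightly higher in the first downstream bin than in the last gene body bin, at 0.336% against 0.333% in CUMS and 0.320% against 0.315% in Ctrl. The CHH level was 0.350% against 0.349% in CUMS and 0.320% against 0.323% in Ctrl. The CHH level then fell over 160 bp, to 0.335% in CUMS and 0.303% in Ctrl in the fourth downstream bin. CHG fell there too, from 0.338% in CUMS and 0.322% in Ctrl in the second downstream bin to 0.329% and 0.308% in the fifth. In the seventh bin it was again at 0.337% and 0.316%. CG dropped at once, from 77.4% to 65.5% in CUMS and from 76.4% to 62.4% in Ctrl.

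Just after the gene end in Ctrl, CHG lay above CHH, although CHH was the higher over the whole downstream stretch in both groups. CHH exceeded CHG in 149 of 150 bins in CUMS and in 134 of 150 bins in Ctrl. Downstream the count was 49 of 50 in CUMS and 36 of 50 in Ctrl, and in Ctrl the level of CHG was the higher in each of the first 11 downstream bins. The margin was small in the first bin (0.3200% for CHG and 0.3198% for CHH) and larger in the fourth (0.311% and 0.303%). Neighbouring downstream CHG bins of Ctrl differed by a median of 0.00306 points. The ratio of the CHH to the CHG level was 1.07 in the gene body in CUMS and 1.048 in Ctrl, and downstream it was 1.04 and 1.01.

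Away from the gene end, the levels of both contexts became slightly lower. The CHG mean of the 5 bins after the end was 1.03 times that of the 5 outermost bins in CUMS (0.333% over 0.324%) and 1.04 times in Ctrl (0.315% over 0.302%). For CHH the factors were 1.01 (0.342% over 0.338%) and 1.02 (0.311% over 0.306%). The lowest CHG bin lay 1641 to 1680 bp after the end in CUMS (0.317%) and 1081 to 1120 bp in Ctrl (0.295%). The lowest CHH bin lay 561 to 600 bp after the end in CUMS (0.333%) and 121 to 160 bp in Ctrl (0.303%). The places of the lowest bins thus differed between the groups, and no dip as at the start was seen in this stretch.

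The ratio of CUMS to Ctrl was then examined bin by bin. For CHG it ranged from 1.046 to 1.12 with a median of 1.06, and for CHH from 1.07 to 1.15 with a median of 1.09. The CUMS level was at least 5% higher in 141 of 150 CHG bins and in 150 of 150 CHH bins, compared with 86.4% of the bins of all 3 contexts. For CG this held in 50 of 50 bins upstream, 2 of 50 in the gene body and 46 of 50 downstream. The CUMS level was at least 10% higher in 4 of 150 CHG bins, 62 of 150 CHH bins and 17 of 150 CG bins. The share over all bins was 18.4%. The CHH ratio exceeded the CHG ratio in 150 of 150 bins.

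Averaged over each stretch, the ratio was larger in the flanks than in the gene body. For CHG, the ratio of the mean levels was 1.08 upstream, 1.06 in the gene body and 1.07 downstream. For CHH it was 1.11, 1.08 and 1.10. Downstream this did not hold throughout. From 441 to 720 bp after the end the ratio was 1.056 for CHG and 1.079 for CHH, near the gene body values. Within the gene body the ratio hardly varied, from 1.049 to 1.08 for CHG and from 1.07 to 1.09 for CHH, and its highest values stood at the start, in the first bin for CHG (1.08) and the second bin for CHH (1.09). CG showed the same order at 1.08, 1.02 and 1.06, but its ratio in the gene body fell much closer to 1.

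The highest ratios stood just before the gene start, in the dip. The CHG ratio was highest at 240 to 201 bp, with 0.310% in CUMS and 0.277% in Ctrl (1.12). It also reached 1.0998 farther out, at 960 to 921 bp, and its median step between neighbouring upstream bins was 0.00955. The CHH ratio was highest at 200 to 161 bp, with 0.324% in CUMS and 0.280% in Ctrl (1.15). Over the 5 bins nearest the start the ratio was 1.10 for CHG and 1.14 for CHH, and over the 5 outermost upstream bins it was 1.06 and 1.099. CG rose up to the start itself, and its highest ratio, 1.23, was in the last upstream bin. The lowest upstream ratios were found at 1760 to 1721 bp for CHG (1.046) and at 1800 to 1761 bp for CHH (1.08).

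The gene end brought no such peak. The CHG ratio was 1.06 in the last 5 gene body bins and 1.06 in the first 5 downstream bins. The CHH ratio was 1.08 and 1.10, and from 441 to 720 bp after the end it was again 1.08. Downstream, the highest CHG ratio was found at 1081 to 1120 bp (0.324% in CUMS and 0.295% in Ctrl, 1.099) and the highest CHH ratio at 1121 to 1160 bp (0.343% and 0.307%, 1.12).

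**Figure D3:**
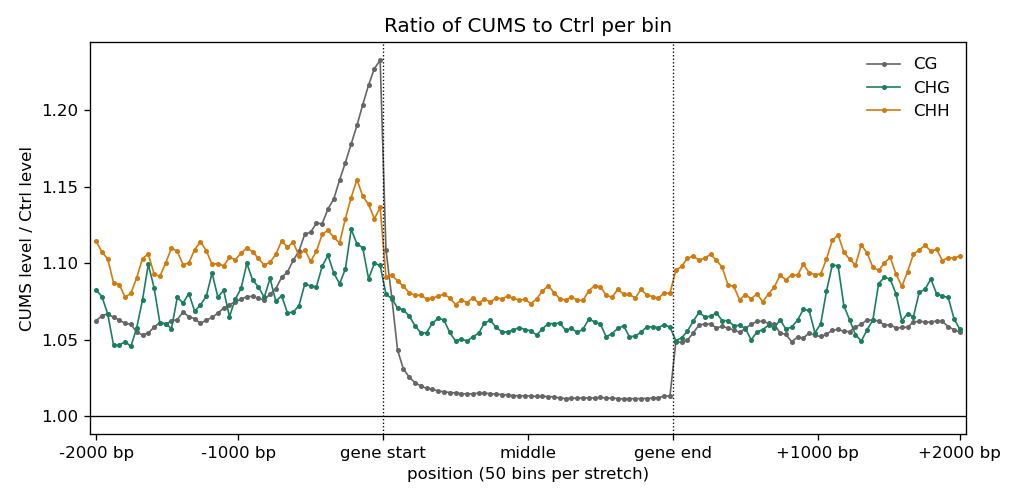
Ratio of the CUMS level to the Ctrl level in each bin for CHG, CHH and CG, with a line at a ratio of 1. The CHH ratio lies above the CHG ratio in each bin, both peak before the gene start (1.12 for CHG and 1.15 for CHH), and CG falls to about 1.01 in the gene body while CHG and CHH do not.

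The gap between the groups was also expressed as a difference, and the highest bin of each context lay before the gene start. For CHG, other bins came close to it, with 0.0308 points at 1640 to 1601 bp and 0.0306 points at 960 to 921 bp before the start. The CHG difference ranged from 0.0142 to 0.0337 percentage points with a median of 0.0194, and the CHH difference from 0.0232 to 0.0433 points with a median of 0.0300. The mean CHG difference was 0.0240 points upstream, 0.0183 in the gene body and 0.0204 downstream. The mean CHH difference was 0.0337, 0.0260 and 0.02998 points, and over all bins it was 1.43 times the CHG difference. The median step between neighbouring CHG bins was smaller than these differences in each stretch, at 0.00225 points in CUMS and 0.00204 points in Ctrl upstream, 0.000979 and 0.00112 points in the gene body, and 0.00313 and 0.00306 points downstream.

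The difference was set beside the level by sorting the bins of a context by the mean of both groups. In the 50 CHG bins with the lowest mean the difference was 0.0231 points (ratio 1.08), and in the 50 bins with the highest mean it was 0.0202 points (ratio 1.06). For CHH the values were 0.0317 points (1.11) and 0.0284 points (1.09). The bins of low level were flank bins, with 22 upstream and 28 downstream for CHG and 17 and 33 for CHH. In CG, the difference was 3.52 points in the bins of low level and 1.18 points in those of high level. Between these sets, the difference in CHG and CHH was somewhat larger in the bins of low level, but much less so than in CG. The sets also differed in position, since those of high level held 26 gene body bins for CHG and 32 for CHH. Within the flanks the difference did not follow the level. Upstream bins 16 to 25, of high level, had 0.0242 points for CHG and 0.0339 for CHH. Downstream bins 12 to 18, of lower level, had 0.0173 and 0.0245 points.

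**Figure D4:**
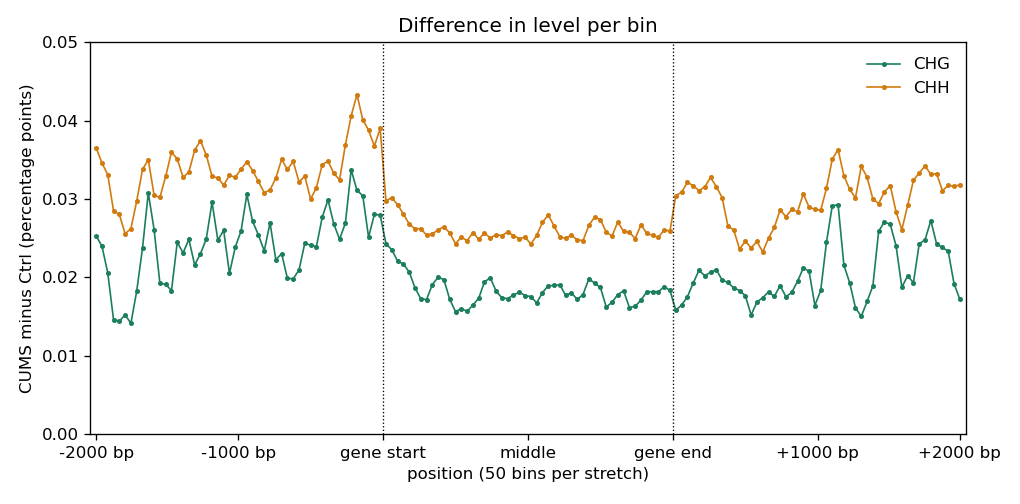
Difference in level (CUMS minus Ctrl, in percentage points, axis from 0) in each bin for CHG and CHH. The CHG values lie between 0.0142 and 0.0337 points and the CHH values between 0.0232 and 0.0433 points, with the highest bin of each context before the gene start.

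The profiles of CHG and CHH resembled that of CG more upstream of genes than in the other stretches. Across the 50 upstream bins, Pearson's r between the CHG and CG levels was 0.88 in CUMS and 0.95 in Ctrl, and between CHH and CG it was 0.96 and 0.98. Across the gene body bins it was 0.0048 and 0.47 for CHG and -0.40 and -0.14 for CHH. Across the downstream bins it was 0.57 and 0.55 for CHG and 0.47 and 0.33 for CHH. CHG and CHH resembled each other upstream, with r of 0.91 in CUMS and 0.96 in Ctrl, and less so downstream, with 0.38 and 0.52. These values describe bins that share genes, samples and libraries.

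Finally, the regions that the authors listed as different between CUMS and Ctrl were counted at the gene start and end. They come from the same reads as the profile and are not independent of it. The paper states a minimum difference in mean methylation for its final regions. In the annotated regions the higher group had a median of only 4.17% for CHG and 7.71% for CHH. Many of the regions counted here thus lie below that minimum. Of the 9017 annotated CHG regions, 68.6% were higher in CUMS, and of the 9996 annotated CHH regions, 78.5% were. The full list without gene annotation held 9020 CHG regions (68.6% higher in CUMS) and 145823 CHH regions, of which 64.6% were higher in CUMS, so the annotated CHH regions are a small part of those listed. In promoters, 298 of 442 annotated CHG regions (67.4%) and 279 of 345 CHH regions (80.9%) were higher in CUMS. At the transcription start site (TSS) the count was 35 of 43 CHG regions (81.4%) and 29 of 36 CHH regions (80.6%). At the transcription end site (TES) it was 9 of 11 CHG regions and 16 of 21 CHH regions (81.8% and 76.2%). The CHH shares at the start and end lay near the share of all annotated CHH regions. The CHG shares at the TSS and TES were above that of all annotated CHG regions, but they rest on few regions and were not tested, and the CHG share in promoters was slightly below it.

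The annotated regions stood far from the level of the profile. They were listed because the groups differed in them, so a gap between their levels follows from that choice. The higher group had a median of 7.71% over all annotated CHH regions, compared with 2.96% over the full list of CHH regions. At the TSS, the group with the higher level had a median of 5.57% in CHG regions and 5.41% in CHH regions, and the other group had 0.0451% and 0.165%. At the TES the medians were 4.37% and 6.79% in the higher group and 0.142% and 0.255% in the other. The regions were short, with a median length of 157 bp (CHG) and 377 bp (CHH) at the TSS. All annotated CHG regions together covered 992 kb and the CHH regions 2949 kb, and the CHH regions of the full list covered 25882 kb. The profile was not recomputed without these regions, and their part in the difference between the groups was not tested.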

How the data were processed

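DNA of 3 CUMS and 3 Ctrl samples was sequenced after enzymatic conversion with TET2 and APOBEC3A. Per the labels, the authors used fastp 0.20.0, Bismark 0.16.3 and Bowtie2 on mRatBN7.2, and λDNA was spiked in as unmethylated control, the conversion rate of which was not analysed here. The profile was deposited as a fraction of methylated calls per bin and group, and was multiplied by 100. How the authors weighted genes, cytosines and samples is not given in the sources used here. Bins were assumed to be equal parts of each stretch (40 bp in the flanks), ordered along the direction of transcription, so the positions given rest on this assumption. Group levels in the region tables of the authors were used, and their difference and areaStat columns were not. Ratios, differences and relative levels were computed with Python 3.11.15 and pandas 2.3.3 and tested on simulated data. Bins named were the highest and lowest levels and ratios of each stretch and those beside the gene start and end; others were chosen after their values were seen. The bins and all measures were chosen with earlier results of these data known. Promoter sequences are from RefSeq (GRCr8). The paper states a range of sequencing coverage over the samples, but the depth behind each bin is unknown. The samples of a group had been combined, so no interval was given.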

Additional observations from a re-analysis of the deposited data

How the results depend on the processing

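The sample labels name no pairs between the groups, so no paired analysis applied. No replicate could be left out, because samples had already been combined within each group. Over 30 results and their alternatives, 71 recomputed values stayed within 1.5 times the main distance from 1 (or the main count), 22 moved beyond it and 8 changed side. The ratios of CUMS to Ctrl and the upstream dips were among those that stayed. Without the 10 bins nearest the start, an alternative added after the data were seen, the upstream ratio was 1.07 for CHG and 1.10 for CHH. The relative levels that changed lay close to 1. With 1, 3 or 10 edge bins and with medians, CHG at the start of the gene body was 0.989, 0.995, 1.0018 and 1.0056 in CUMS and 0.967, 0.978, 0.9935 and 0.9937 in Ctrl. At the end of the gene body it was 1.0019, 1.0009, 0.9915 and 0.9989 in CUMS and 1.0004, 0.9990, 0.9913 and 0.9992 in Ctrl. CHH at the start of the gene body was 0.991, 0.996, 1.0035 and 1.0060 in Ctrl, and 1.0032 with 1 bin in CUMS. After the gene end, CHG in CUMS was 1.0498 with 1 bin and 1.043 with 3. CHH there was 1.043, 1.028 and 1.0067 with 1, 3 and 10 bins in CUMS and 1.052, 1.033 and 1.012 in Ctrl. CHG stayed below 1 at the start of the gene body in Ctrl and above 1 after the gene end in both groups under each of these settings. Among CHG regions at the TES, 1 region had a difference of at least 8.10 points, and it was lower in CUMS (0.0% higher), which is too few to read. The cause of these changes was not tested, and the depth behind each bin could not be assessed.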

Other observations

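A small hump in the gene body was seen in each context and group, least clearly for CHG in Ctrl. It was chosen after its values were seen. In the bins from 32% to 38% of the gene, CHG methylation averaged 0.338% in CUMS and 0.319% in Ctrl, compared with 0.361% and 0.336% for CHH. In the 3 bins before, the values were 0.334% and 0.318% for CHG and 0.357% and 0.332% for CHH, and in the 3 bins after, they were 0.332% and 0.315% and 0.355% and 0.330%. For CHG in Ctrl, the bin from 28% to 30% of the gene, before the hump, was at 0.31905%. The bin from 34% to 36%, in the hump, was lower at 0.3185%. The CG level in the hump was 76.4% in CUMS and 75.3% in Ctrl. In the 3 bins before the hump CG was at 75.0% and 73.9%, and in the 3 bins after it at 75.4% and 74.3%. The ratio of the groups was 1.06 for CHG and 1.08 for CHH in the hump, near the values of the central gene body (1.06 and 1.08).

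The steps between neighbouring bins went the same way in both groups in 27 of 49 steps upstream, 34 in the gene body and 38 downstream for CHG. For CHH the counts were 37, 36 and 32, and for CG they were 47, 47 and 49. Across the downstream bins, Pearson's r between CUMS and Ctrl was 0.52 for CHH and 0.80 for CHG, compared with 0.995 for CG.

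In the annotated CHG regions as a whole, the group with the lower level had a median of 0.0390%, and in the annotated CHH regions 0.198%. In the full list of CHH regions the median was 0.159%. The mean of the profile over all bins in Ctrl was 0.307% for CHG and 0.317% for CHH. The regions were listed because the groups differed in them, so the low medians follow in part from that choice.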
